A study of Mus musculus with 12 samples.

Results

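The miR-183 cluster is a group of 3 microRNA (miRNA) hairpins, miR-183, miR-96 and miR-182, and each hairpin gives a 5p and a 3p mature arm. All 6 arms were taken by name from a table of 1042 mouse miRNAs measured in 12 small RNA libraries of 5 cell types. Tests were run over the 732 miRNAs that reached 10 reads in 2 or more libraries, and all 6 arms were among them. miR-96-3p reached 10 reads in reprogrammed libraries alone, the cells where it was highest, so its tests against the other cell types are not independent of this filter, and for the 3 main comparisons its adjusted p with no filter is given too. The hairpins are cut from a shared primary transcript, and their abundant 5p products bind messenger RNAs mainly through the seed, the bases near the 5′ end. The cluster is best known from sensory organs such as the inner ear and retina, and it is also abundant in epithelia and in many carcinomas.

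The mature sequences are shown because the 3 5p arms have similar seeds while the seeds of their 3p partners differ. They are RefSeq entries on GRCm38.p6, written 5′ to 3′ with the seed (bases 2 to 8) in capitals.
mmu-miR-183-5p: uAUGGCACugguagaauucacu
mmu-miR-96-5p: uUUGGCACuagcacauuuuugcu
mmu-miR-182-5p: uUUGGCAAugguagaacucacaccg
mmu-miR-183-3p: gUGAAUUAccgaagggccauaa
mmu-miR-96-3p: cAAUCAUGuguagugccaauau
mmu-miR-182-3p: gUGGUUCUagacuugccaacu

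Positions are counted from 1 at the 5′ end, with the base of the miRNA named first in front. miR-182-5p and miR-96-5p had the same bases 2 to 7 (UUGGCA) and differed within the first 8 bases at A8C. Over their 23 shared positions 12 bases were equal. miR-96-5p and miR-183-5p differed within the first 8 bases at U2A. Over their 22 shared positions, miR-182-5p and miR-183-5p had 18 equal bases and differed at U2A, A8C, C17U and A22U. Of the 1042 names, 804 matched a RefSeq mature sequence, and none of those outside the cluster had bases 2 to 7 of any of the 6 arms.

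All 3 hairpins lie on the minus strand of chromosome 6 in GRCm38. Mir183 is at chr6:30169668-30169737, Mir96 at chr6:30169446-30169551 and Mir182 at chr6:30165918-30165992, so that in the direction of transcription miR-183 comes before miR-96 and miR-182. Mir183 and Mir96 are 116 bases apart, Mir96 and Mir182 are 3453 bases apart, and the span is 3820 bases. In the GENCODE M21 annotation the hairpins lie in no exon or intron of another gene. Nrf1, a protein-coding gene on the plus strand, ends at position 30153458, and Rncr4, a long intergenic non-coding RNA on the plus strand, starts at position 30172893.

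Libraries came from mouse embryonic fibroblasts (MEFs, 3 libraries), embryonic stem cells (ESCs, 3), induced pluripotent stem cells (iPSCs, 2), nuclear transfer ESCs (NT-ESCs, 2) and NT-iPSCs (2). MEFs and the last 3 types, together called reprogrammed cells, were C57B6/129SvJae F1, and all reprogrammed lines were made from that MEF line. The ESCs were the line E14, of strain 129/ola. iPSCs were MEFs infected with a doxycycline-inducible lentivirus for c-Myc, Klf4, Oct4 and Sox2, NT-ESCs came from MEF nuclei moved into oocytes, and NT-iPSCs from iPSC nuclei moved into oocytes. The pluripotent cells all grew with LIF over irradiated MEF feeders, so their RNA can hold feeder RNA. Libraries of a type were RNA batches of 1 line, so that limma p-values measure the spread between batches and not between lines. Exact permutation tests of reprogrammed cells pool 3 lines and mix both spreads. Strain, line and cell type cannot be told apart where ESCs are compared. Fewer expressing cells and less miRNA per cell cannot be told apart either.

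Reads on miRNAs ran from 4863365 to 8608689 per library. Of 22 miRNA arms that mark pluripotent cells (the miR-290 and miR-302 clusters), 11 were at 0 in every MEF library and 2 in every ESC library. The sum of the 22 was 0.890 to 12.9 CPM (reads scaled to a common library total) in MEFs against 101461 to 207253 CPM in the pluripotent libraries. The sum of 6 fibroblast miRNAs was 57681 to 88277 CPM in MEFs. These were not absent from the pluripotent libraries, with 38496 to 42728 CPM in ESCs and 11313 to 37404 CPM in the reprogrammed libraries. The sum hides members that went opposite ways. In reprogrammed cells minus ESCs 3 were higher and 3 lower, where 44.0% and 38.0% of all miRNAs tested were. On the log2 scale miR-143-3p differed by −4.22 and miR-199a-3p by 3.66. The 6 reprogrammed libraries stood apart from the other 6 in several ways that touch every comparison with them. In the study's sequencing summary they had more total reads and a larger share of 5′ adaptor contaminants. Their shares of reads without a 3′ adaptor or without an insert were smaller. Their size factors (the divisors that set libraries to a common scale) were 1.14 to 1.44 against 0.762 to 0.999. The ratio of 5p to 3p reads of a hairpin differed from ESCs in 81.4% of 263 hairpins and from MEFs in 79.1%, while it differed between MEFs and ESCs in 30.4% (limma, Benjamini-Hochberg adjusted p under 0.05). The labels name no batch, so a difference in library making and the cell type cannot be told apart in those comparisons.

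In ESCs the cluster gave 20.8%, 20.1% and 22.0% of all miRNA reads, a mean of 21.0% ± 0.945 (SD, n = 3). It gave 0.184%, 0.214% and 0.200% in MEFs, a mean of 0.199% ± 0.0149 (SD, n = 3). The shares were 0.376% and 0.332% in iPSCs, 0.458% and 0.428% in NT-ESCs, and 0.267% and 0.276% in NT-iPSCs. ESC libraries lay far above all others, and all 6 reprogrammed libraries lay above the MEF libraries on this scale. The reprogrammed mean was 0.356% ± 0.0784 (SD, n = 6), which differed from ESCs with an exact permutation p of 0.0119, the smallest that 6 against 3 libraries can give (two-sided). The 6 libraries pool iPSCs, NT-ESCs and NT-iPSCs and were permuted as if alike. Their SD and permutation p-values thus mix the spread between types with that between batches. Against MEFs the exact permutation p was 0.0238, and without any 1 of the MEF libraries it was 0.0714. That direction depended on the scale: as reads per size factor the cluster held 18291 ± 4248 (SD, n = 6) in reprogrammed cells and 20563 ± 226 (SD, n = 3) in MEFs, with an exact permutation p of 0.393. MEFs against ESCs gave an exact permutation p of 0.1, the smallest that 3 against 3 libraries can give.

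**Figure D1:**
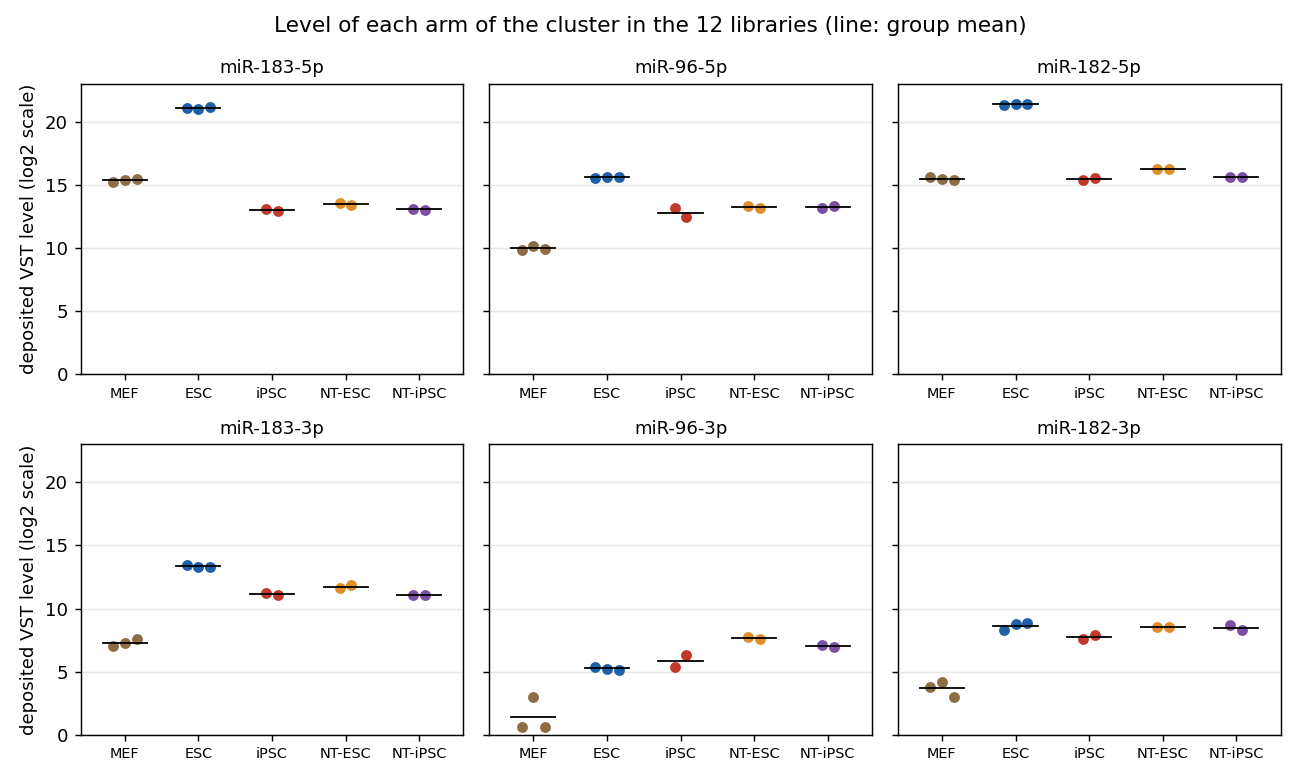
Level of each arm of the cluster (deposited variance-stabilized value, log2 scale, vertical axis) in the 12 libraries, grouped by cell type on the horizontal axis. Points are libraries and lines are group means. All 3 ESC libraries lie above all other libraries for both arms of miR-183 and for the 5p arms of miR-96 and miR-182, while miR-96-3p is highest in NT-ESCs.

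The comparison of MEFs with ESCs asked how a fibroblast and a pluripotent cell differ in the cluster, and every arm was lower in MEFs. miR-182-5p, the most abundant arm, had 540827, 652098 and 601855 reads in ESCs and 8988, 8404 and 7667 in MEFs. It ranked 1 or 2 among all miRNAs in each ESC library and 62 to 68 in MEFs. miR-183-5p had 456787, 495185 and 489915 reads in ESCs and 6674, 8175 and 8269 in MEFs. It ranked 2 or 3 in ESCs and 65 to 71 in MEFs. miR-96-5p, the arm whose seed mutations are known to cause hearing loss, had 9569, 11605 and 10512 reads in ESCs and 161, 216 and 179 in MEFs. The 5p arms of miR-182, miR-183 and miR-96 were thus 60.4-fold, 52.9-fold and 48.2-fold higher in ESCs by mean reads per size factor.

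The 3p arms were scarcer and had the same direction. miR-183-3p had 2337, 2354 and 2199 reads in ESCs and 23, 29 and 34 in MEFs, 68.0-fold higher in ESCs. miR-182-3p had 65, 99 and 99 reads in ESCs and 2, 3 and 1 in MEFs, a ratio of 37.1 with an exact 95% interval of 16.8 to 102 that covers counting error only. miR-96-3p, the least abundant arm, had 8, 8 and 7 reads in ESCs and 0, 1 and 0 in MEFs, a ratio of 19.4 with an interval of 3.16 to 801. No arm overlapped between the groups, which held for 79.9% of all miRNAs tested.

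On the deposited variance-stabilized scale (VST, a log2 scale that compresses low counts), the limma differences of MEFs minus ESCs were −5.92 for miR-182-5p, −5.73 for miR-183-5p, −5.59 for miR-96-5p and −6.07 for miR-183-3p. Their standard errors were 0.118, 0.118, 0.168 and 0.157, and their adjusted p-values (limma) were at most 1.07e-10. The differences of miR-182-3p (−4.95, SE 0.315, limma adjusted p = 7.11e-08) and miR-96-3p (−3.87, SE 0.59, limma adjusted p = 0.000101, and 0.000923 with no filter) rest on the few MEF reads given above. All 6 arms passed the test, where 79.0% of the 732 miRNAs did, and 39.9% were lower in MEFs. The median difference of the 6 arms was −5.66, against 0 over all miRNAs tested and a median absolute difference of 1.74. The 5p arms moved by closely similar amounts, within a range of 0.326. Of 16 genomic clusters with at least 3 hairpins (the most abundant arm of each), the other 15 had wider ranges, with a median of 1.70. A range grows with the number of hairpins, and this cluster has the fewest allowed. Sizes were not matched, so its place cannot show that its arms moved unusually alike. Over other ways of scaling, the median of all miRNAs shifted by up to −0.804 in this comparison and 0.982 between reprogrammed cells and MEFs, which is small beside most differences in the cluster.

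**Figure D2:**
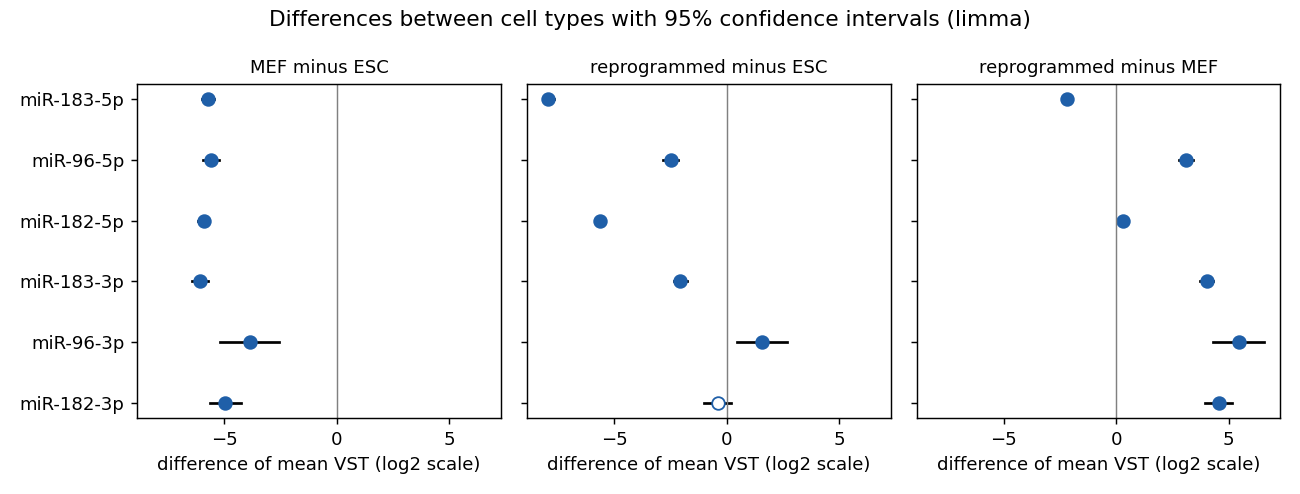
Difference of mean VST level (log2 scale, horizontal axis) of the 6 arms in 3 comparisons. Points are limma estimates, bars are their 95% confidence intervals, and filled points passed the adjusted threshold. The arms run from −6.07 to −3.87 in MEFs minus ESCs and spread from −7.92 to 1.57 in reprogrammed cells minus ESCs.

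Reprogrammed cells were compared with ESCs to ask how near their levels lay to the ESC level, and the gap differed between the arms. Line, strain and library making cannot be told apart from reprogramming in these gaps. miR-183-5p showed the widest gap. It had 2718 and 2429 reads in iPSCs, 4062 and 2803 in NT-ESCs, and 2401 and 2322 in NT-iPSCs, and its rank was 126 to 165. That was 238.5-fold below ESCs by mean reads per size factor, a difference of −7.92 (SE 0.102, limma adjusted p = 2.46e-13), the smallest p-value of the cluster in this comparison. miR-182-5p had 13553 and 15212 reads in iPSCs, 26002 and 20282 in NT-ESCs, and 14314 and 14248 in NT-iPSCs. It was 47.7-fold below ESCs (−5.61, SE 0.102, limma adjusted p = 3.22e-12). Neither arm overlapped with ESCs in any library, where 71% of all miRNAs tested (520 of 732) did not overlap.

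miR-96-5p and miR-183-3p lay between MEFs and ESCs. miR-96-5p had 2795 and 1779 reads in iPSCs, 3370 and 2464 in NT-ESCs, and 2572 and 2768 in NT-iPSCs. It was 5.52-fold below ESCs (−2.49, SE 0.145, limma adjusted p = 1.82e-08). miR-183-3p had 749 and 699 reads in iPSCs, 1035 and 971 in NT-ESCs, and 596 and 619 in NT-iPSCs. It was 4.06-fold below ESCs (−2.05, SE 0.136, limma adjusted p = 6.00e-08), a far smaller gap than that of its 5p partner.

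The scarce 3p arms of miR-182 and miR-96 lay nearer to their ESC levels. miR-182-3p had 60 and 74 reads in iPSCs, 121 and 97 in NT-ESCs, and 114 and 89 in NT-iPSCs, which overlapped with the ESC libraries. Its difference did not pass the test (−0.39, 95% confidence interval −0.99 to 0.21, limma adjusted p = 0.201), although it did in iPSCs alone. miR-96-3p had 12 and 24 reads in iPSCs, 71 and 49 in NT-ESCs, and 38 and 33 in NT-iPSCs. It was 3.59-fold higher than in ESCs (1.57, SE 0.511, limma adjusted p = 0.0140, and 0.0354 with no filter), although the lower iPSC library overlapped with ESCs.

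In all, 4 arms were lower in reprogrammed cells, 1 was higher and 1 did not pass the test, where 82.0% of all miRNAs passed it, 38.0% lower and 44.0% higher. The median difference of the arms was −2.27, against 0.24 over all miRNAs tested. Each type on its own gave 5 arms past the threshold, where 75.8% of miRNAs passed it for iPSCs and for NT-ESCs and 77.6% for NT-iPSCs. The arm that did not pass was miR-96-3p in iPSCs (0.57, 95% confidence interval −0.88 to 2.03) and miR-182-3p in NT-ESCs (−0.12, −0.90 to 0.65) and NT-iPSCs (−0.15, −0.93 to 0.63). The call of miR-182-3p in iPSCs (−0.90, limma adjusted p = 0.0359) and that of miR-96-3p in NT-iPSCs (1.75, limma adjusted p = 0.0308) were lost in several alternatives. The first was lost without ESC replicate 3 or 4 or either iPSC library (limma adjusted p = 0.0630 to 0.165), with no filter on low values (limma adjusted p = 0.0549), with upper quartile scaling (−0.67, limma adjusted p = 0.0996) and with total reads as the scale (−0.49, limma adjusted p = 0.199). These scalings shift the median of all miRNAs by 0.22 and 0.42. The second was lost without any 1 of the 5 libraries compared (limma adjusted p = 0.0509 to 0.118) and with no filter (limma adjusted p = 0.0673).

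Against the MEFs from which they came, reprogrammed cells had 5 arms higher and 1 lower. Here 88.9% of all miRNAs passed the test, 48.5% were higher and 40.4% were lower. miR-96-5p was 8.74-fold higher (3.10, SE 0.145, limma adjusted p = 1.70e-09) and miR-183-3p was 16.7-fold higher (4.02, SE 0.136, limma adjusted p = 1.00e-10). For miR-182-3p the ratio was 28.4, with an exact 95% interval of 12.9 to 77.6 (4.56 on the VST scale, limma adjusted p = 1.58e-08). For miR-96-3p it was 69.6, with an interval of 12.4 to 2761 (5.44, limma adjusted p = 9.49e-07, and 3.02e-05 with no filter). miR-183-5p was the arm that was lower than in MEFs, 4.51-fold (−2.19, SE 0.102, limma adjusted p = 1.68e-09). With total reads as the scale, which shifts the median of all miRNAs by 0.98, its difference was −1.18.

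miR-182-5p differed little between reprogrammed cells and MEFs. The difference was 0.31 (95% confidence interval 0.08 to 0.53, limma adjusted p = 0.0143), and the groups overlapped, unlike those of the other 5 arms (80.6% of all miRNAs did not overlap). It was below the median over all miRNAs tested, which was 0.40. It was 0.62 with trimmed mean scaling and 1.32 with total reads as the scale, which shift the median of all miRNAs by 0.31 and 0.98. Its limma adjusted p was 0.0563 without MEF replicate 14 and 0.0903 without MEF replicate 15, and 4.13e-08 to 0.0903 over the alternatives tried. By type, the difference passed the test in NT-ESCs (0.76, limma adjusted p = 0.000208), and it was −0.00059 in iPSCs (95% confidence interval −0.29 to 0.29) and 0.16 in NT-iPSCs (−0.13 to 0.45). With total reads as the scale both passed it, at 1.31 in iPSCs (limma adjusted p = 5.65e-07) and 0.92 in NT-iPSCs (limma adjusted p = 1.42e-05), where that scale shifts the median of all miRNAs by 1.30 and 0.72. In NT-iPSCs the difference also passed with trimmed mean scaling (0.41, limma adjusted p = 0.0314), which shifts the median by 0.26. The arms past the threshold were 5 in iPSCs (87.8% of all miRNAs), 6 in NT-ESCs (84.0%) and 5 in NT-iPSCs (83.1%).

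The order of the cell types thus depended on the arm. For miR-183-5p it was ESCs, MEFs, NT-ESCs, NT-iPSCs and iPSCs (mean VST 21.08, 15.35, 13.47, 13.03 and 12.99), and neither NT-ESCs and NT-iPSCs nor NT-iPSCs and iPSCs passed the limma test. For miR-182-5p it was ESCs and NT-ESCs (21.39 and 16.24), then NT-iPSCs, MEFs and iPSCs (15.63, 15.47 and 15.47), and no pair of the last 3 passed the limma test on the deposited scale, while all 3 pairs passed it with total reads as the scale. For miR-96-5p and miR-183-3p ESCs were highest (15.57 and 13.37), the reprogrammed types followed (12.79 to 13.24 and 11.08 to 11.72) with no pair of them past the limma threshold, and MEFs were lowest (9.98 and 7.30). For miR-182-3p MEFs were lowest (3.69), iPSCs (7.74) were below ESCs (8.64), and NT-ESCs and NT-iPSCs (8.52 and 8.50) did not pass the limma test against ESCs. For miR-96-3p NT-ESCs were highest (7.65), followed by NT-iPSCs (7.01), iPSCs (5.83), ESCs (5.26) and MEFs (1.39), and neither the reprogrammed types among each other nor iPSCs and ESCs passed the limma test.

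Reprogrammed types were compared with each other because they were made by different routes from 1 MEF line, with 2 libraries each. NT-ESCs had more miR-182-5p than iPSCs (0.76, SE 0.144, 1.69-fold, limma adjusted p = 0.00338, and 0.40 with total reads as the scale) and more than NT-iPSCs (NT-iPSCs minus NT-ESCs −0.61, SE 0.144, limma adjusted p = 0.0282). NT-ESCs also had more miR-183-5p than iPSCs (0.48, SE 0.145, limma adjusted p = 0.0325). These were the 2 arms past the threshold between NT-ESCs and iPSCs, where 25.7% of all miRNAs passed it, and the 1 arm between NT-iPSCs and NT-ESCs, where 12.8% did. Between NT-iPSCs and iPSCs limma called 0 arms, with 0 at an unadjusted p under 0.05, where 26.5% of all miRNAs were called. voom, which weights log2 counts by their precision, called miR-96-3p (1.20, voom adjusted p = 0.0320). The interval for miR-182-5p in that comparison was −0.16 to 0.48 and that for miR-183-5p −0.28 to 0.36.

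The miR-183-5p call between NT-ESCs and iPSCs was lost without iPSC replicate 63, NT-ESC replicate 71 or NT-ESC replicate 72 (limma adjusted p = 0.134, 0.187 and 0.0615), with only the 2 types in the fit (limma adjusted p = 0.0812) and with total reads as the scale (0.12, limma adjusted p = 0.657), which shifts the median of all miRNAs by −0.35 in that comparison. The miR-182-5p call between NT-iPSCs and NT-ESCs was lost without any 1 of the 4 libraries (limma adjusted p = 0.0773 to 0.13).

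Other differences between reprogrammed types missed the threshold but passed it in some alternatives. miR-183-3p lay just above it between NT-ESCs and iPSCs (0.56, limma adjusted p = 0.0541) and between NT-iPSCs and NT-ESCs (−0.64, limma adjusted p = 0.0516). The first was called with trimmed mean scaling, voom, no filter or the filter of at least 100 reads (limma or voom adjusted p = 0.0246 to 0.0468). The second was called with trimmed mean scaling, total reads, log2(normalized reads + 1), voom or the filter of at least 100 reads (limma or voom adjusted p = 0.0186 to 0.0489). miR-96-3p had a difference of 1.82 in NT-ESCs minus iPSCs (limma adjusted p = 0.0879), which was called by voom (1.86, voom adjusted p = 0.00169) and with log2(normalized reads + 1) (1.80, limma adjusted p = 0.0118). Between NT-iPSCs and iPSCs, miR-183-3p (−0.09) and miR-182-5p (0.16) were called with total reads as the scale (−0.63 and −0.39, limma adjusted p = 0.0444 and 0.0321), which shifts the median of all miRNAs by −0.51 there. miR-183-5p in NT-iPSCs minus NT-ESCs (−0.44, limma adjusted p = 0.0677) was called with trimmed mean scaling (−0.53, limma adjusted p = 0.0470). voom also called miR-182-3p in NT-ESCs minus iPSCs (0.78, voom adjusted p = 0.0435). miR-96-5p was called in NT-ESCs and in NT-iPSCs against iPSCs without iPSC replicate 62 (0.78 and 0.75, limma adjusted p = 0.0158 and 0.0196). The summed fibroblast miRNAs were also lower in iPSCs (11313 to 12643 CPM) than in NT-ESCs (31958 to 32425) and NT-iPSCs (32814 to 37404), and their part in these differences was not tested.

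A hairpin's arms are cut from the same molecule, so their ratio within a library does not depend on library size. For the miR-183 hairpin, the 3p arm held 0.343%, 0.353% and 0.409% of the hairpin's reads in MEFs and 0.509%, 0.473% and 0.447% in ESCs. It held 21.6% and 22.3% in iPSCs, 20.3% and 25.7% in NT-ESCs, and 19.9% and 21.0% in NT-iPSCs. The reprogrammed libraries were set apart from all others, with 5p to 3p ratios of 2.89 to 4.03 against 195 to 290. For the miR-182 hairpin the 3p share ran from 0.0120% to 0.0164% in ESCs, from 0.0130% to 0.0357% in MEFs and from 0.441% to 0.790% in reprogrammed cells. For miR-96 these ranges were 0.0665% to 0.0835%, 0% to 0.461% and 0.428% to 2.06%.

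**Figure D3:**
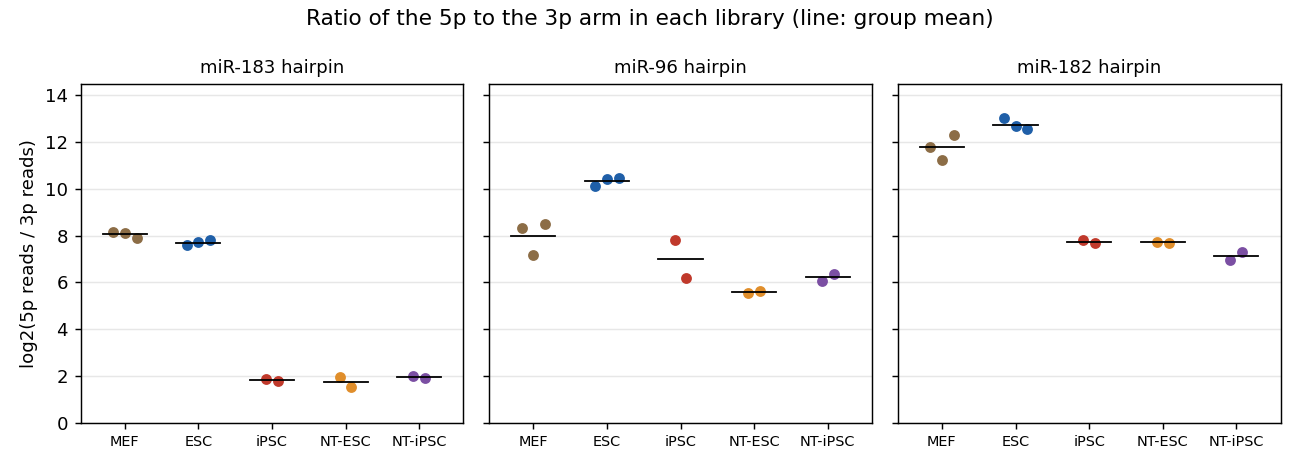
log2 ratio of 5p to 3p reads (vertical axis, pseudocount 0.5) of the 3 hairpins in the 12 libraries, by cell type on the horizontal axis. Points are libraries and lines are group means. The miR-183 hairpin lies near 8 in MEFs and ESCs and between 1.53 and 2.01 in the 6 reprogrammed libraries.

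On the log2 scale the 5p to 3p ratio in reprogrammed cells differed from that in ESCs by −5.86 for miR-183 (SE 0.173, limma adjusted p = 1.16e-12), −5.22 for miR-182 (SE 0.287, limma adjusted p = 6.65e-10) and −4.07 for miR-96 (SE 0.449, limma adjusted p = 1.16e-06). All 3 hairpins passed the test, where 81.4% of the 263 hairpins did and 44.9% had a lower 5p share. By size of the change they ranked 32, 48 and 79 of 263, and the median absolute change was 2.67. Against MEFs the changes were −6.21, −4.25 and −1.73 (limma adjusted p = 4.91e-13, 6.89e-09 and 0.00278), where 79.1% of hairpins passed. The last of these rests on 3p arms of 0 or 1 read in MEFs and was −0.95 with a pseudocount of 1 (limma adjusted p = 0.0328). Changes of this kind ran in both directions over the table. The hairpins that changed most between reprogrammed cells and ESCs were miR-381 (12.43), miR-140 (−9.37) and miR-376a (−9.35), and between MEFs and ESCs these differed by 0.79, 0.26 and 0.67 without passing the test.

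Between MEFs and ESCs, 30.4% of hairpins passed. miR-96 was lower in MEFs (−2.34, SE 0.518, limma adjusted p = 0.00339), where its 3p arm had at most 1 read in a library. miR-182 was lower by a smaller margin (−0.96, SE 0.331, limma adjusted p = 0.0434), with a 3p arm of 1 to 3 reads in MEFs. This call was lost without MEF replicate 13 or 14 or any of the 3 ESC replicates (limma adjusted p = 0.0593 to 0.151). The miR-183 ratio, which rests on more reads, differed by 0.35 (95% confidence interval −0.08 to 0.78, limma adjusted p = 0.217).

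**Figure D4:**
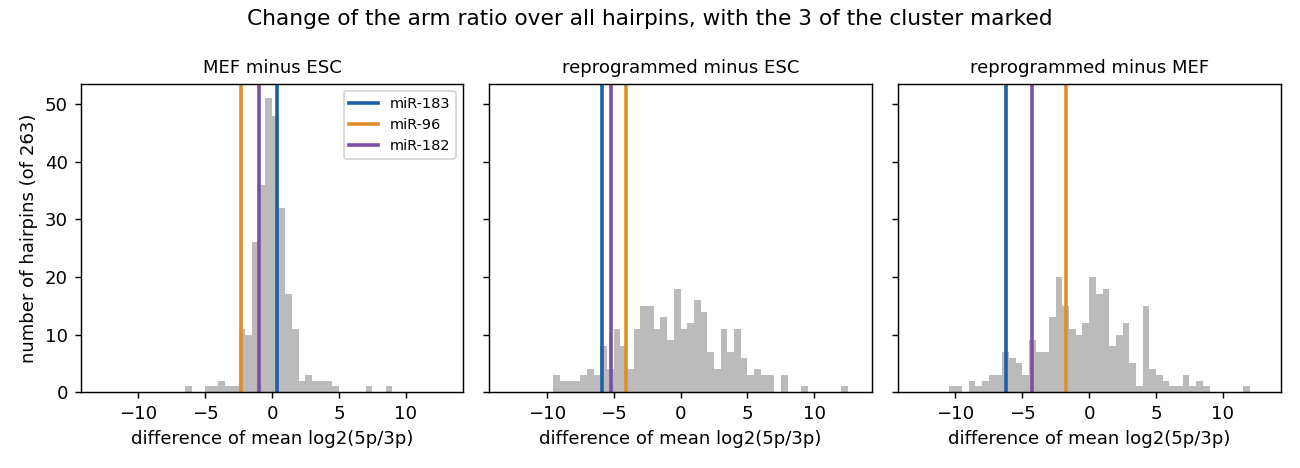
Number of hairpins (vertical axis, of 263) by the difference of mean log2 5p to 3p ratio (horizontal axis) in 3 comparisons, with coloured lines at the 3 hairpins of the cluster. The grey distribution is wider in both comparisons with reprogrammed cells (median absolute difference 2.67 and 2.31) than in MEFs minus ESCs (0.706), and all 3 hairpins lie on its lower side there.

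The mix of the 3 5p arms also differed between reprogrammed cells and the other types. miR-182-5p, miR-183-5p and miR-96-5p made up 54.9%, 44.2% and 0.968% of the 5p reads of the cluster in ESCs and 51.5%, 47.4% and 1.14% in MEFs (means, n = 3 each). In reprogrammed cells (n = 6) they made up 75.7%, 12.4% and 11.9%. The log2 ratio of miR-183-5p to miR-182-5p was −0.24, −0.40 and −0.30 in ESCs, −0.43, −0.04 and 0.11 in MEFs, and −2.86 to −2.32 in reprogrammed cells. The reprogrammed mean was lower by −2.30 than in ESCs and by −2.50 than in MEFs, each with an exact permutation p of 0.0119. The log2 ratio of miR-96-5p to miR-182-5p was −5.84 to −5.81 in ESCs, −5.80 to −5.28 in MEFs and −3.10 to −2.28 in reprogrammed cells, a difference of 3.12 from ESCs and 2.80 from MEFs (exact permutation p = 0.0119 each). MEFs and ESCs differed by 0.19 (exact permutation p = 0.4) and 0.32 (exact permutation p = 0.1), where 0.1 is the smallest p that 3 against 3 libraries can give. Adjusted by Benjamini-Hochberg over the 9 permutation tests of shares and ratios, an exact permutation p of 0.0119 became 0.0214 and that of the share against MEFs 0.0357.

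**Figure D5:**
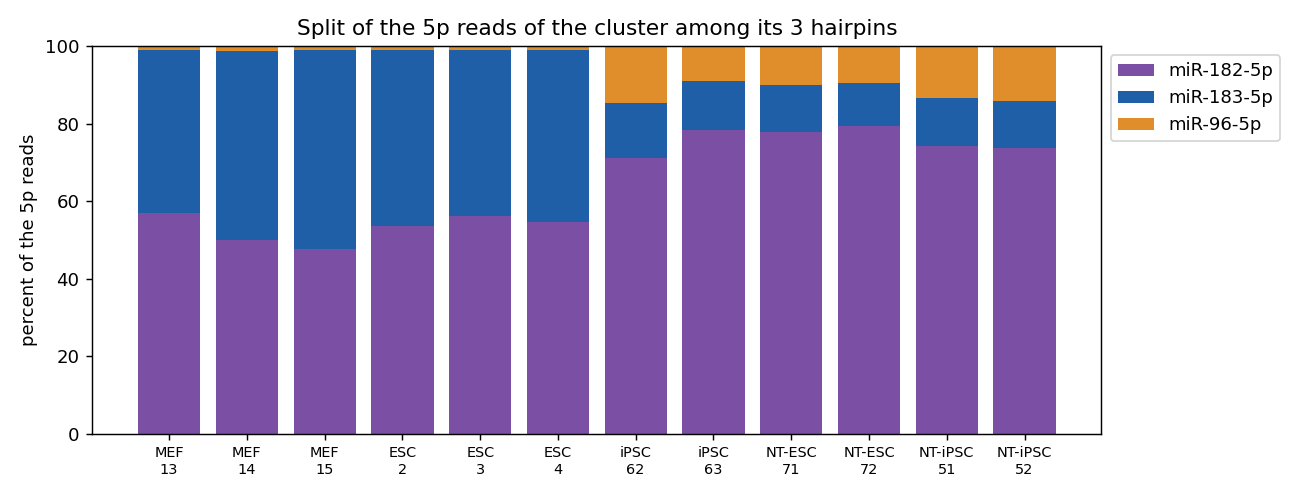
Split of the 5p reads of the cluster (percent, vertical axis) among its 3 hairpins in each of the 12 libraries (horizontal axis, cell type and replicate number). The MEF and ESC bars are nearly all miR-182-5p and miR-183-5p, and the 6 reprogrammed bars hold 71.1% to 79.4% miR-182-5p and 9.16% to 14.7% miR-96-5p.

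In reprogrammed cells minus ESCs the leading arms of the cluster had a range of differences of 5.43, and 11 of the other 15 genomic clusters had a wider one (median of the others 6.66). In reprogrammed cells minus MEFs the range was 5.29, and 9 had a wider one (median 6.03). Here too the clusters were not matched for their number of hairpins. Across the 12 libraries, Pearson's r of the VST values was 0.944 between miR-183-5p and miR-182-5p, 0.981 between miR-183-3p and miR-96-5p, 0.796 between miR-96-5p and miR-182-5p and 0.562 between miR-183-5p and miR-96-5p. Between both arms of a hairpin it was 0.437 for miR-183, 0.648 for miR-96 and 0.452 for miR-182. Over all 15 pairs of arms it ran from −0.207 (miR-183-5p and miR-96-3p) to 0.981. These values describe 5 cell types with replicates, and the libraries share their cell type and scaling.

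The miRNAs outside the cluster with the most similar pattern over the 12 libraries differed by arm. For miR-183-5p they were miR-330-5p (r = 0.980), miR-106b-5p (r = 0.979) and miR-32-5p (r = 0.975). These had mean VST of 9.30, 16.90 and 12.78 in ESCs and 7.01, 14.94 and 10.97 in MEFs. Their means were lower than in MEFs in all 3 reprogrammed types, though only slightly for miR-32-5p (10.53 to 10.87). For miR-182-5p they were miR-200c-3p (r = 0.968), miR-32-5p (r = 0.966) and miR-135b-3p (r = 0.959). For miR-96-5p they were miR-20b-5p (r = 0.994), miR-106a-5p (r = 0.987) and miR-429-3p (r = 0.978). miR-20b-5p had a mean VST of 16.64 in ESCs, 12.87 to 13.81 in the reprogrammed types and 8.33 in MEFs, so it too was intermediate in the reprogrammed types.

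Of 7 other miRNAs known for their high level in epithelia (miR-200a-3p, miR-200b-3p, miR-200c-3p, miR-141-3p, miR-429-3p, miR-203-3p and miR-205-5p), 6 were lower in MEFs than in ESCs and miR-203-3p was higher (2.65), with a median of −3.90, where 39.9% of all miRNAs were lower and 39.1% higher. In reprogrammed cells against ESCs 4 were lower and 3 higher, with a median of −1.28, where 38.0% and 44.0% of all miRNAs were. Of these, miR-200c-3p (−3.88) and miR-141-3p (−4.37), which share a genomic cluster, fell most, and miR-205-5p rose by 3.56. Against MEFs 4 were higher and 2 lower in reprogrammed cells, with a median of 2.87, where 48.5% and 40.4% of all miRNAs were, and miR-200c-3p did not pass the test (0.03, limma adjusted p = 0.908). The arms of the miR-183 cluster had medians of −5.66, −2.27 and 3.56 in the same 3 comparisons.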

How the data were processed

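RNA from 12 samples was sequenced as small RNA libraries. The authors cleaned the tags of adaptors, low quality and contaminants, annotated them, and normalized and variance-stabilized the miRNA reads with DESeq. The values they deposited are on this log2 scale (VST). The submitters' processing notes name mm8. The aligner, the miRBase release and the DESeq version are not given in the sources used here, and no mm8 coordinates are printed.

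The transformation was inverted to recover reads, which were whole within 0.05 read for 100% of values (largest deviation 0.0162). Reads gave depth (4863365 to 8608689 per library), CPM, arm ratios and the filter. A count of 3 reads stands for 0.348 to 0.617 CPM, and intervals cover counting error only.

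Levels were tested in R 4.3.3 with limma 3.58.1, using the deposited values of all 12 libraries, with a mean per cell type, empirical Bayes with trend, and Benjamini-Hochberg adjustment over 732 miRNAs at 0.05, for 12 contrasts. Arm ratios were tested with limma on log2((5p + 0.5)/(3p + 0.5)) over 263 hairpins. For shares and ratios between arms, library labels were permuted exactly (two-sided), with the reprogrammed types pooled. Other tools were matplotlib 3.10.9, scipy 1.17.1, Python 3.11.15, pandas 2.3.3 and numpy 2.4.6.

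Named miRNAs are the members, the 3 others with the highest Pearson r with each 5p arm, the epithelial list, and the 3 hairpins with the greatest change of arm ratio. The members and lists were chosen with earlier results of these data known. Alternatives were other scalings (upper quartile, trimmed mean, total reads), log2(normalized reads + 1), voom, other filters, a minimum difference of 1, only the groups compared, other pseudocounts, and each replicate left out.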

Additional observations from a re-analysis of the deposited data

Results flagged for a closer look

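In 3 cases an arm of the cluster differed directly between types of reprogrammed cells. miR-182-5p was higher in NT-ESCs than in iPSCs by 0.76 on the log2 scale (26002 and 20282 reads against 13553 and 15212, limma adjusted p = 0.00338), and it stayed past the threshold under all 12 alternatives tried for it, with limma adjusted p-values of 0.000649 to 0.0320. The minimum difference of 1, which was applied to counts of arms only, left it uncalled. miR-183-5p was higher in NT-ESCs than in iPSCs by 0.48 (limma adjusted p = 0.0325, 0.0174 to 0.657 over the alternatives). miR-182-5p was lower in NT-iPSCs than in NT-ESCs, with a difference of −0.61 (limma adjusted p = 0.0282, 0.00455 to 0.13 over the alternatives). Of all miRNAs tested, 25.7% passed the same test in NT-ESCs minus iPSCs, where 2 of the 6 arms did, and 12.8% in NT-iPSCs minus NT-ESCs, where 1 did. Each type had 2 libraries of 1 line.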

How the results depend on the processing

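Of 1122 alternatives over 90 differences and ratios, 1054 kept direction and side of the threshold and 16 changed sign. Of 174 alternatives over 12 counts of arms called, 152 were within 1.5 times the count given; in the 3 main comparisons the counts ran from 4 to 6 (MEFs minus ESCs), 4 to 5 (reprogrammed cells minus ESCs) and 4 to 6 (reprogrammed cells minus MEFs). All differences of single arms in MEFs minus ESCs and in reprogrammed cells minus ESCs kept both in all alternatives tried. Those of reprogrammed cells minus MEFs did too, except miR-182-5p, which was 0.24 to 0.39 with 1 library left out. The 5p to 3p ratio of miR-182 in MEFs minus ESCs was −1.23 to −0.68 with 1 library left out. The share of reads in reprogrammed cells minus MEFs was 0.0292 percentage points without the 10 most abundant other miRNAs (exact permutation p = 0.810), −2272 as reads per size factor, and 0.136 to 0.174 with 1 library left out. With total reads as the scale, miR-182-5p changed sign in iPSCs minus MEFs (1.31) and NT-iPSCs minus iPSCs (−0.39) and passed the threshold in both, where this scale shifts the median of all miRNAs by 1.30 and −0.51. In NT-iPSCs minus iPSCs it also turned miR-183-5p (−0.50) and miR-96-5p (−0.12). Trimmed mean scaling turned miR-182-5p in iPSCs minus MEFs (0.33) and miR-183-5p in NT-iPSCs minus iPSCs (−0.034), and upper quartile scaling turned miR-182-3p in NT-ESCs (0.18) and NT-iPSCs (0.12) minus ESCs. With 1 library left out, values near 0 took either sign: miR-182-3p in NT-iPSCs minus ESCs (−0.32 to 0.018) and minus NT-ESCs (−0.19 to 0.14), miR-182-5p in iPSCs minus MEFs (−0.082 to 0.081), miR-183-5p in NT-iPSCs minus iPSCs (−0.039 to 0.13) and miR-96-5p in NT-iPSCs minus NT-ESCs (−0.093 to 0.031). The filter of at least 100 reads left 3 arms past the threshold in iPSCs and in NT-iPSCs against MEFs, since it tests fewer arms.

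Between NT-ESCs and iPSCs, where 2 arms were called, the count was 0 with a minimum difference of 1, 1 with total reads or with only the groups compared, 5 with voom, and 1 to 3 with 1 library left out. Between NT-iPSCs and iPSCs (0 called) it was 2 with total reads, 1 with voom, and 0 to 1 with 1 library left out. Between NT-iPSCs and NT-ESCs (1 called) it was 0 with a minimum difference of 1, 3 with trimmed mean scaling, 2 with total reads, log2(normalized reads + 1), voom or the filter of 100 reads, and 0 with any 1 library left out. The cause was not tested. No paired analysis was possible because no 2 cell types have a replicate number in common. With 2 or 3 RNA batches of 1 line per type, differences between lines cannot be estimated, and arms with under 10 reads in a group are known only to their counting error.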
